A study of Mus musculus with 16 samples.

Results

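The IL-6 family of cytokines was followed through 10 genes in the mouse heart under pressure overload, with and without the long noncoding RNA Cardinal. The 10 genes were chosen by symbol as 3 ligands (Il6, Il11 and Lif), 2 ligand-binding receptors (Il6ra and Il11ra1), 3 signal-transducing receptors (Osmr, Lifr and Il6st), the transcription factor Stat3 and the feedback inhibitor Socs3. Each symbol matched 1 of the 55487 genes in the count table, and all 10 were among the 18275 genes that had enough counts to be tested.

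Poly(A) RNA was sequenced from the heart apex of 16 male mice, 4 in each of 4 groups, and hearts were taken 4 weeks after surgery. Ctrl animals were wild type (WT in the labels), and KO animals (CARDINAL-KO) carried a deletion of Cardinal, annotated in mouse as Gm12295. How the deletion was made and in which tissues is not given in the sources used here. In transverse aortic constriction (TAC) the aorta is tied against a needle that is then withdrawn, which leaves a narrowing that the left ventricle must pump against, and sham animals had the same operation without the tie. The groups were Ctrl sham (WT, sham), KO sham (CARDINAL-KO, sham), Ctrl TAC (WT, TAC) and KO TAC (CARDINAL-KO, TAC). The age and strain of these animals are not given in the sources used here.

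IL-6 family ligands signal through receptor complexes that share Il6st, which encodes gp130. IL-6 and IL-11 first bind a receptor of their own (encoded by Il6ra and Il11ra1) and then engage gp130 dimers, whereas LIF signals through gp130 paired with the LIF receptor, and oncostatin M through gp130 paired with the oncostatin M receptor. JAK kinases bound to gp130 phosphorylate STAT3, which moves to the nucleus, and SOCS3 is induced by STAT3 and blocks the kinases on gp130. In the heart this pathway is known for its part in cardiomyocyte growth and survival, in fibroblast activation by IL-11 and in inflammation.

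Library totals ranged from 53169437 to 79404714 counts, and mitochondrial genes took 26.8% to 28.8% of counts in sham and 21.9% to 27.0% in TAC libraries. A pair of libraries stood apart. Gm12295 lay at 3.25 to 3.86 CPM (a gene's count scaled to a common normalized library size) in Ctrl sham, at 0.297 to 0.553 CPM in KO sham and at 2.69 to 8.03 CPM in Ctrl TAC. It was at 0.276 to 0.371 CPM in 3 KO TAC libraries but at 4.55 CPM in the library labelled KO TAC 4, which goes against its label. Ctrl TAC 2 lay apart on the second principal component (-62.5, against -3.40 to 13.8 in the others) and held the most Schwann cell marker RNA (21.4 CPM in sum, against at most 6.37 CPM in the other Ctrl TAC libraries). Ctrl TAC 2 also had the highest sums of adipocyte (3.09 CPM), skeletal muscle (3.05 CPM) and atrial markers (3.27 CPM). Other libraries had at most 0.647, 0.595 and 1.98 CPM, in that order. The counts of members called are therefore given with and without Ctrl TAC 2 and KO TAC 4. The defining cardiomyocyte markers were abundant in every library, with a sum of 37610 CPM or more over 8 genes.

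In Ctrl hearts, TAC raised Stat3 by 1.32-fold and lowered Lifr to 0.673 of its sham level. In KO hearts Stat3 rose by 1.39-fold and Lifr fell to 0.635 of sham. The ligands Il6 (5.07-fold) and Il11 (3.58-fold) also passed the test in KO hearts, from at most 10 counts in any KO sham library. In Ctrl hearts the log2 fold changes of Il6 and Il11 were 1.44 and 1.03 and did not pass. Transcripts of Lif, Il6ra, Il11ra1, Osmr, Il6st and Socs3 did not pass the test in any comparison. No member differed between KO and Ctrl hearts after TAC or after sham surgery at an adjusted p under 0.05, and none showed an interaction of genotype and surgery. In whole tissue such as this, fewer cells of a type and less RNA per cell cannot be told apart. The test throughout was edgeR's quasi-likelihood test over all 18275 genes with Benjamini-Hochberg adjustment, and a gene is called where its adjusted p is under 0.05.

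**Figure D1:**
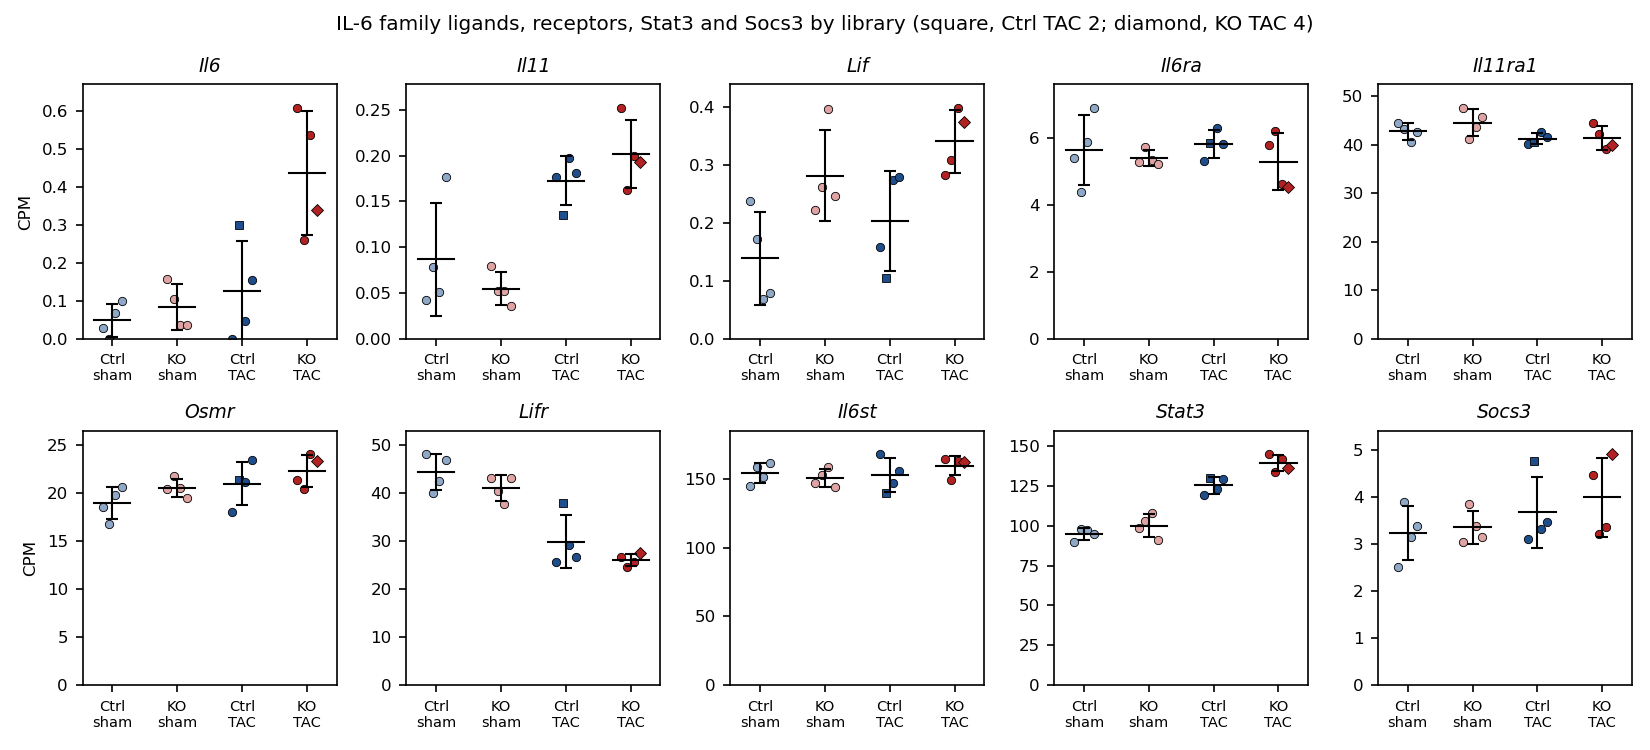
CPM (y axis, from 0) of the 10 genes in each of the 16 libraries by group, 1 point per library, with a bar and whiskers for the group mean and SD over 4 libraries. Within each genotype, Stat3 lies higher and Lifr lower in the 4 TAC libraries than in the 4 sham libraries, while Il6ra, Il11ra1, Osmr, Il6st and Socs3 overlap between groups.

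Promoter sequences are shown for the 4 called genes and for Socs3, since they let the gene list be read beside the motifs of the factors that this pathway uses. They come from windows of the 250 bases before a transcript start as RefSeq gives it (build GRCm38.p6). Shown is the longest run of each window outside annotated exons of the gene, written 5′ to 3′ on the strand of the gene. The 10 genes have 13 such windows. Capitals mark matches, on either strand, to TTCNNNGAA (a STAT site), TGANTCA (AP-1), GGANTTTCC (NF-kappaB) or TGACGTCA (a cAMP response element). No matches of different motifs overlapped in the sequences shown, and for Il11 the window of the second RefSeq start is given.
Il6 (chr5:30012864-30013113, plus strand): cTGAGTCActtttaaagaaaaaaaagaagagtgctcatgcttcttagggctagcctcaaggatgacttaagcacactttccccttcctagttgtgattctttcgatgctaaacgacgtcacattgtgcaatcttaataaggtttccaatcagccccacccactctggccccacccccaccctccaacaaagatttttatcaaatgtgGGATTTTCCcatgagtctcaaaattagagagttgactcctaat
Il11 (chr7:4778142-4778391, minus strand): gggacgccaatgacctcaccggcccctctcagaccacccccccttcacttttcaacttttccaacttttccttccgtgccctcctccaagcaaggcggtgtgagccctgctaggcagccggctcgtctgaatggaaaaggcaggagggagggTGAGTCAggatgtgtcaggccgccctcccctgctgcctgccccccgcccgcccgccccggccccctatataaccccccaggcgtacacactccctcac
Stat3 (chr11:100939541-100939790, minus strand): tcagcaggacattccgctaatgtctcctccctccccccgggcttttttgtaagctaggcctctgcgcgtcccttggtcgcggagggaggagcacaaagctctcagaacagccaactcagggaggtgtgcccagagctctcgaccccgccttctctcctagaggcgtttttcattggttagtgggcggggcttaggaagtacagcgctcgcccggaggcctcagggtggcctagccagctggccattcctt
Lifr (chr15:7129322-7129558, plus strand): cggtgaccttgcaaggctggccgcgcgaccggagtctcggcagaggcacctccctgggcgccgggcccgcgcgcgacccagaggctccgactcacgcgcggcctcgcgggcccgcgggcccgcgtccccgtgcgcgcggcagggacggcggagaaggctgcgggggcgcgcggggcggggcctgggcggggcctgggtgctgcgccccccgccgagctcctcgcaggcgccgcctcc
Socs3 (chr11:117969452-117969616, minus strand): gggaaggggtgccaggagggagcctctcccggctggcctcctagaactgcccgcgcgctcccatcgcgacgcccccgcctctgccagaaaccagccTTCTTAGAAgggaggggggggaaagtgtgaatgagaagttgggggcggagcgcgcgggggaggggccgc

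Of the 13 windows, that of Socs3 alone held the STAT letters, as TTCTTAGAA, with its first base 154 bases before the start. These letters occur in 7.02% of the 32851 windows of all genes. The AP-1 letters, in 6.75% of all windows, were found before Il6, Lif and the second start of Il11. The NF-kappaB letters, in 1.07% of windows, were found before Il6, with the first base 43 bases before the start, and TGACGTCA (1.55% of windows) was found before none of the 10 genes. The windows of Stat3 and Lifr held none of the 4 motifs.

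The genes differed widely in level when counts were divided by annotated exon length. Over the 16 libraries, Il6st stood at 13.9 ± 0.762 CPM per kb (SD), Stat3 at 12.1 ± 2.04 and Il11ra1 at 9.50 ± 0.524 CPM per kb. Lifr (3.28 ± 0.788), Osmr (1.71 ± 0.162), Socs3 (1.23 ± 0.229) and Il6ra (0.642 ± 0.0778 CPM per kb) followed. The ligands were scarce, at 0.0712 ± 0.0774 CPM per kb for Il6, 0.0619 ± 0.0344 for Il11 and 0.0554 ± 0.0240 for Lif. Each step of this order from Il11ra1 down to Il6 held in 16 of 16 libraries, whereas Il6st exceeded Stat3 in 12 and Stat3 exceeded Il11ra1 in 13 of 16. The order of the ligands was not separable, since Il6 exceeded Il11 in 8 and Il11 exceeded Lif in 10 of 16 libraries. The ratio of Il6st to Il6ra level per kb was 21.8 ± 4.32 in Ctrl sham and 24.0 ± 4.42 in KO TAC (n = 4 each).

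**Figure D2:**
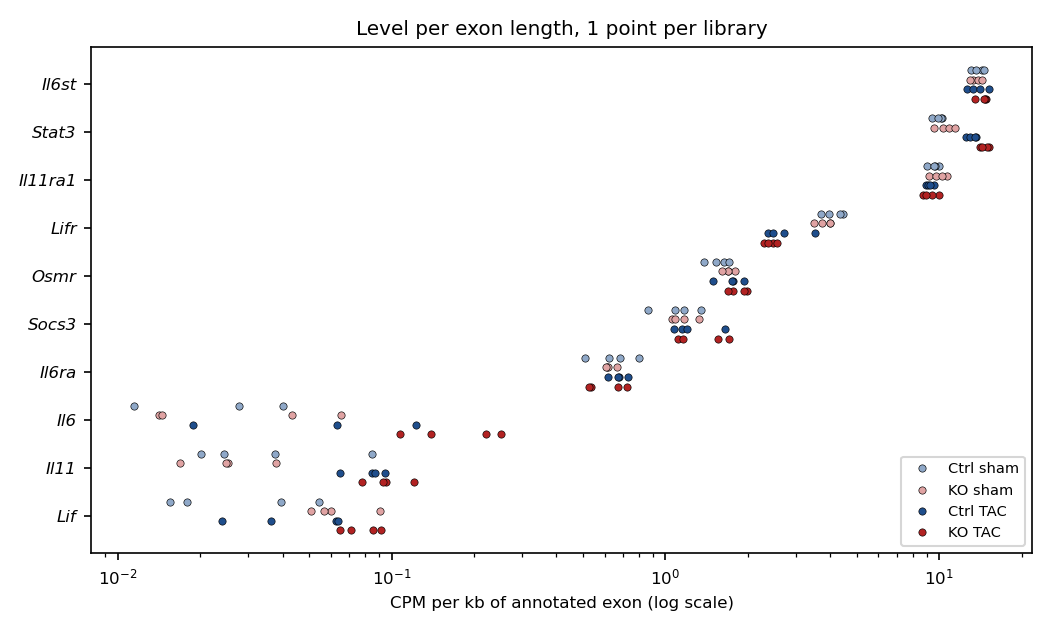
CPM per kb of annotated exon (x axis, log scale) of the 10 genes, ordered by mean, with 1 point per library and color by group. Il6st, Stat3 and Il11ra1 lie near 10 CPM per kb and the 3 ligands below 0.251, and the 2 libraries with no Il6 count (Ctrl sham 2 and Ctrl TAC 1) cannot be drawn on a log axis.

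Ligands had at most 41 counts in any library. Il6, the founding cytokine of the family (ENSMUSG00000025746, chromosome 5, 30013114 to 30019981, plus strand, GRCm38), had 2, 0, 4 and 5 counts in the Ctrl sham libraries and 10, 6, 2 and 2 counts in KO sham. After TAC it had 0, 20, 3 and 11 counts in Ctrl and 41, 16, 35 and 28 counts in KO. The 4 KO TAC libraries were above the 4 KO sham libraries, a separation seen for 18.0% of all genes tested, and Ctrl TAC libraries spread over both ranges. In KO hearts the log2 fold change of Il6 with TAC was 2.34 (SE 0.707, adjusted p = 0.0156), and in Ctrl hearts it was 1.44 (SE 0.858, adjusted p = 0.268). The change in KO hearts held without KO TAC 4 (adjusted p = 0.0227) but not without KO sham 4 (adjusted p = 0.0528).

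Il11, a ligand that acts on fibroblasts (ENSMUSG00000004371, chromosome 7, 4772373 to 4782859, minus strand), had 3, 5, 3 and 9 counts in Ctrl sham and 5, 3, 3 and 2 counts in KO sham. It had 10, 9, 13 and 13 counts in Ctrl TAC and 17, 10, 13 and 16 counts in KO TAC. In CPM, KO TAC (0.162 to 0.252) did not overlap KO sham (0.0352 to 0.0790), whereas in Ctrl hearts 1 sham library, Ctrl sham 4, reached 0.176 CPM, within the TAC range of 0.134 to 0.198 CPM. The log2 fold change with TAC was 1.84 in KO (SE 0.439, adjusted p = 0.00313) and 1.03 in Ctrl (SE 0.419, adjusted p = 0.0946). Without Ctrl sham 4 the Ctrl change was 1.57 and passed the test (adjusted p = 0.0156).

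Lif, which signals through Lifr and gp130 (ENSMUSG00000034394, chromosome 11, 4257557 to 4272514, plus strand), had 17, 11, 4 and 4 counts in Ctrl sham, 14, 15, 23 and 14 in KO sham, 9, 7, 18 and 20 in Ctrl TAC and 19, 19, 26 and 31 in KO TAC. It did not pass the test with TAC in Ctrl (log2 fold change 0.52, adjusted p = 0.423) or in KO (0.28, adjusted p = 0.605). The KO TAC libraries (0.282 to 0.399 CPM) lay above the Ctrl TAC libraries (0.105 to 0.278 CPM), as in 5.55% of all genes tested, but the fitted difference of 0.73 (95% interval -0.06 to 1.52) had an adjusted p of 0.310.

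At these counts the fit rests on few reads. Over 4 libraries each, Il6 summed to 34 counts in Ctrl TAC (exact Poisson 95% interval 23.5 to 47.5, counting error only) and to 120 in KO TAC (99.5 to 143). The 3 ligands were also compared over 4 pairs of groups by permuting their libraries exactly (two-sided, on log2 CPM), a test chosen after seeing the data. This permutation gave the smallest p that 70 relabellings allow, 0.0286, for Il6 and Il11 with TAC in KO hearts and for Lif between KO TAC and Ctrl TAC. After adjustment over the 12 tests each of these was 0.114.

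Neither ligand-binding receptor passed the test with TAC. Il6ra, the IL-6 receptor (ENSMUSG00000027947, chromosome 3, 89864059 to 89913196, minus strand), ranged from 4.41 to 6.92 CPM over the 16 libraries. Its log2 fold change with TAC was 0.05 in Ctrl (95% interval -0.22 to 0.31, adjusted p = 0.841) and -0.03 in KO (-0.29 to 0.24, adjusted p = 0.890). Of its exon bases, 2.80% overlap the gene Gm42809 on the opposite strand, and whether counting used strand is not given in the sources used here.

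Il11ra1, the IL-11 receptor (ENSMUSG00000073889, chromosome 4, 41699989 to 41769474, plus strand), ranged from 39.0 to 47.7 CPM. Its log2 fold change was -0.05 in Ctrl (-0.17 to 0.06, adjusted p = 0.556) and -0.11 in KO (-0.22 to 0.01, adjusted p = 0.140). Its value is uncertain in that the near-identical copies Il11ra2 and Gm13305 also received counts, at mean levels of 1.28 to 1.47 CPM and 1.37 to 1.68 CPM over the groups, and reads shared by the copies could be split or dropped by the counting.

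Among the signal-transducing receptors, Lifr alone passed the test. Lifr (ENSMUSG00000054263, chromosome 15, 7090614 to 7197489, plus strand) stood at 48.1, 40.0, 42.6 and 46.9 CPM in Ctrl sham and at 43.1, 40.4, 37.7 and 43.2 CPM in KO sham. After TAC it stood at 25.6, 37.9, 29.2 and 26.7 CPM in Ctrl and at 26.7, 24.7, 25.6 and 27.5 CPM in KO. The TAC libraries lay below the sham libraries of their genotype without overlap, as in 9.97% of all genes in Ctrl and 16.6% in KO, with Ctrl TAC 2 the highest of the 8 TAC libraries. The log2 fold change with TAC was -0.57 in Ctrl (SE 0.0972, adjusted p = 0.000435) and -0.65 in KO (SE 0.0975, adjusted p = 5.4e-05). Both were called with each of the 16 libraries left out in turn.

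Osmr, which pairs with gp130 for oncostatin M (ENSMUSG00000022146, chromosome 15, 6813577 to 6874969, minus strand), ranged from 16.8 to 20.6 CPM in Ctrl sham, 19.5 to 21.8 in KO sham, 18.0 to 23.5 in Ctrl TAC and 20.4 to 24.1 CPM in KO TAC. The 4 ranges overlapped. Its log2 fold change with TAC was 0.15 in Ctrl (95% interval -0.02 to 0.32, adjusted p = 0.208) and 0.12 in KO (-0.05 to 0.29, adjusted p = 0.272). The ratio of Lifr to Osmr level per kb was 2.64 ± 0.211 in Ctrl sham and 1.61 ± 0.294 in Ctrl TAC, and 2.25 ± 0.213 in KO sham and 1.32 ± 0.0892 in KO TAC. The TAC and sham ranges of this ratio did not overlap in either genotype.

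Il6st, encoding gp130 (ENSMUSG00000021756, chromosome 13, 112464070 to 112510086, plus strand), stood at 154 ± 7.40 CPM in Ctrl sham, 151 ± 6.50 in KO sham, 153 ± 12.3 in Ctrl TAC and 160.2 ± 6.99 in KO TAC (SD, n = 4). The log2 fold change with TAC was -0.01 in Ctrl (95% interval -0.13 to 0.11, adjusted p = 0.911) and 0.08 in KO (-0.04 to 0.21, adjusted p = 0.281).

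Stat3, the main transcription factor of the pathway (ENSMUSG00000004040, chromosome 11, 100885098 to 100939540, minus strand), stood at 89.7, 97.9, 97.2 and 94.7 CPM in Ctrl sham and at 98.6, 103.1, 108.4 and 91.1 CPM in KO sham. After TAC it stood at 119.4, 130.0, 123.2 and 129.3 CPM in Ctrl and at 145.2, 134.0, 142.0 and 136.5 CPM in KO. The TAC libraries were above the sham libraries of their genotype without overlap, as in 10.5% of all genes in Ctrl and 18.0% in KO, and each KO TAC library above each Ctrl TAC library. The log2 fold change with TAC was 0.40 in Ctrl (SE 0.0539, adjusted p = 4.0e-05) and 0.48 in KO (SE 0.0539, adjusted p = 2.3e-06). Both changes were called with each library left out in turn. Of its exon bases, 0.756% overlap Stat5a on the other strand.

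Socs3, the feedback inhibitor whose promoter sequence above holds the STAT letters (ENSMUSG00000053113, chromosome 11, 117966079 to 117970047, minus strand), stood at 2.51, 3.89, 3.14 and 3.38 CPM in Ctrl sham and at 3.05, 3.85, 3.39 and 3.15 CPM in KO sham. After TAC it stood at 3.11, 4.78, 3.33 and 3.48 CPM in Ctrl and at 4.48, 3.22, 3.36 and 4.92 CPM in KO. A single Ctrl TAC library and 2 KO TAC libraries were above all sham libraries, and the others lay among them. The log2 fold change with TAC was 0.19 in Ctrl (95% interval -0.16 to 0.54, adjusted p = 0.483) and 0.25 in KO (-0.10 to 0.61, adjusted p = 0.265).

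**Figure D3:**
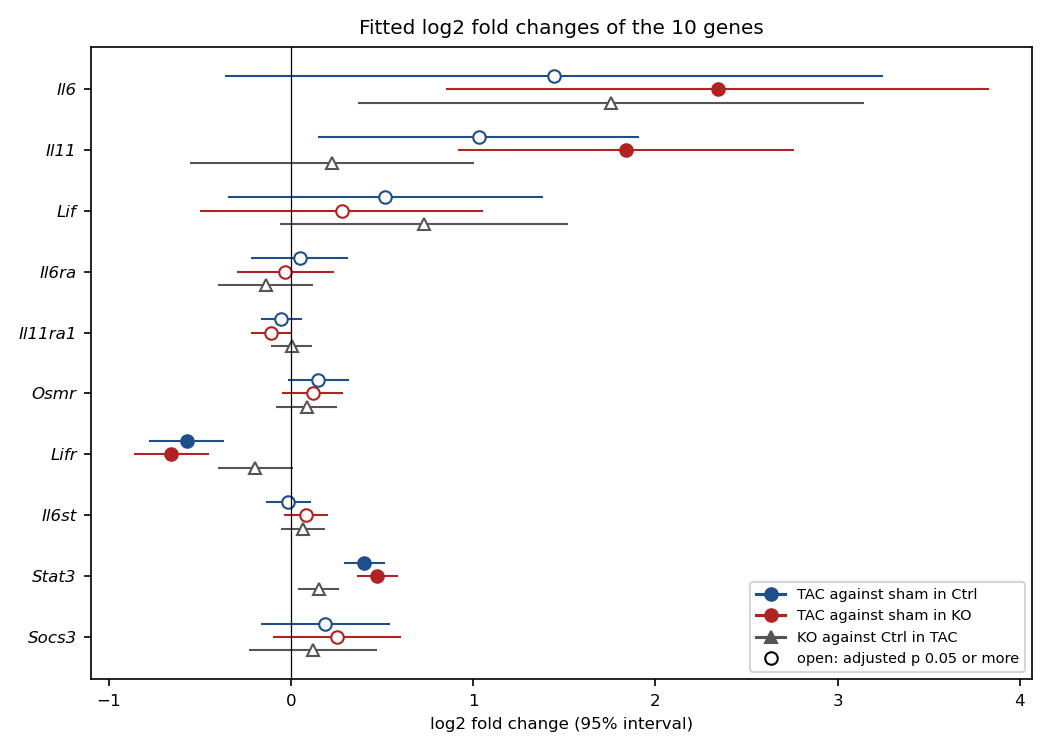
Fitted log2 fold change (x axis) with its 95% interval for the 10 genes in 3 comparisons, where filled symbols have an adjusted p under 0.05. Filled symbols are seen for Lifr and Stat3 with TAC in both genotypes and for Il6 and Il11 with TAC in KO, and none for KO against Ctrl in TAC, while the intervals of the ligands are the widest.

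By count, TAC in Ctrl hearts changed 2 of the 10 genes (1 higher, 1 lower), where 20.0% of all tested genes were called (10.4% higher, 9.60% lower). TAC in KO hearts changed 4 of the 10 (3 higher, 1 lower), where 34.3% of all tested genes were called (17.8% higher, 16.5% lower). The share of the 10 genes is in both cases close to that of all genes. Their median log2 fold change was 0.17 in Ctrl and 0.19 in KO, beside medians of 0.0043 and -0.0039 over all genes tested. The counts stayed at 2 and 4 without Ctrl TAC 2, without KO TAC 4, and without both. Between KO and Ctrl after TAC, 0 of 10 were called by edgeR, against 2.68% of all genes. DESeq2 also called 0 of 10, against 1183 of the 18275 genes, and gave no adjusted p for the 3 ligands. At an unadjusted p under 0.05 by edgeR there were 2 members, Il6 and Stat3, where 18.5% of all genes were. Between KO and Ctrl after sham surgery, 0 of 10 were called by either tool, where edgeR called 0% of all genes and DESeq2 called 3 genes. By edgeR, 1 member (Lif) had an unadjusted p under 0.05, against 2.62% of all genes. Both counts of 0 stayed at 0 in edgeR without Ctrl TAC 2, without KO TAC 4, and without both.

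The comparison of KO with Ctrl after TAC asks whether the loss of Cardinal changed the pathway under load. Stat3 and Il6 were the members whose 95% interval left out 0. Stat3 had a log2 difference of 0.15 (SE 0.0537, 95% interval 0.04 to 0.27, unadjusted p = 0.0109, adjusted p = 0.131). It was higher in all 4 KO TAC libraries than in any Ctrl TAC library, a separation seen in 5.55% of all genes tested in that direction. Between libraries whose animal numbers begin with 25 (KO TAC 4 against Ctrl TAC 2, 3 and 4) the log2 ratio of Stat3 was 0.10, and between those that begin with 3 (KO TAC 1, 2 and 3 against Ctrl TAC 1) it was 0.23. Il6 was higher by 1.76 (SE 0.659, adjusted p = 0.157), with Ctrl TAC 2 within the KO TAC range. The other 8 genes had adjusted p values from 0.297 to 0.973. The interaction, which asks whether the change with TAC differed between genotypes, was 0.90 for Il6 (SE 1.20, adjusted p = 0.841), 0.81 for Il11 (SE 0.618, adjusted p = 0.673), -0.08 for Lifr (SE 0.137, adjusted p = 0.875) and 0.07 for Stat3 (SE 0.0761, adjusted p = 0.778). In all, 0 of 10 were called by edgeR, where 0.0109% of all genes were. DESeq2 also called 0, against 132 of the 18275 genes, but gave no adjusted p for the 3 ligands. By edgeR, 0 of 10 had an unadjusted p under 0.05, against 11.1% of all genes. The count of members called also stayed at 0 in edgeR without either or both of Ctrl TAC 2 and KO TAC 4. Il6 and Il11 passing the test with TAC in KO and not in Ctrl hearts is therefore not shown to be a difference between genotypes.

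The other genes of the pathway were taken from a list of 58, of which 54 could be tested. With TAC, 16 of 54 were called in Ctrl (10 higher, 6 lower) and 25 of 54 in KO (15 higher, 10 lower), against 20.0% and 34.3% of all genes. The medians were 0.08 in Ctrl and 0.07 in KO.

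Of the 7 other ligand genes tested, 3 were called in each genotype, against 20.0% of all genes in Ctrl and 34.3% in KO. Ctf1, encoding cardiotrophin 1, a ligand of Lifr and gp130 made in the heart, fell from 6.34 ± 0.380 to 3.72 ± 0.793 CPM in Ctrl (log2 -0.77, adjusted p = 0.00234) and from 5.32 ± 1.24 to 3.06 ± 0.404 CPM in KO (log2 -0.80, adjusted p = 0.000886). Clcf1 fell in Ctrl by 0.57 on the log2 scale (adjusted p = 0.0135, and 0.0532 without Ctrl sham 2), and in KO its log2 fold change was -0.25 (adjusted p = 0.214). Ctf2, a paralog of Ctf1, fell in KO by 1.77 on the log2 scale from a mean of 0.329 CPM (adjusted p = 0.00466), and in Ctrl its value was -0.44 (adjusted p = 0.515). Cntfr, the receptor for ciliary neurotrophic factor, fell in KO from 3.09 ± 0.241 to 1.05 ± 0.306 CPM (log2 -1.55, adjusted p = 7.0e-05), and in Ctrl its log2 fold change was -0.67 (adjusted p = 0.0509). Osm, the ligand of Osmr, had 17 to 45 counts per group and did not pass the test (adjusted p = 0.737 in Ctrl and 0.371 in KO).

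**Figure D4:**
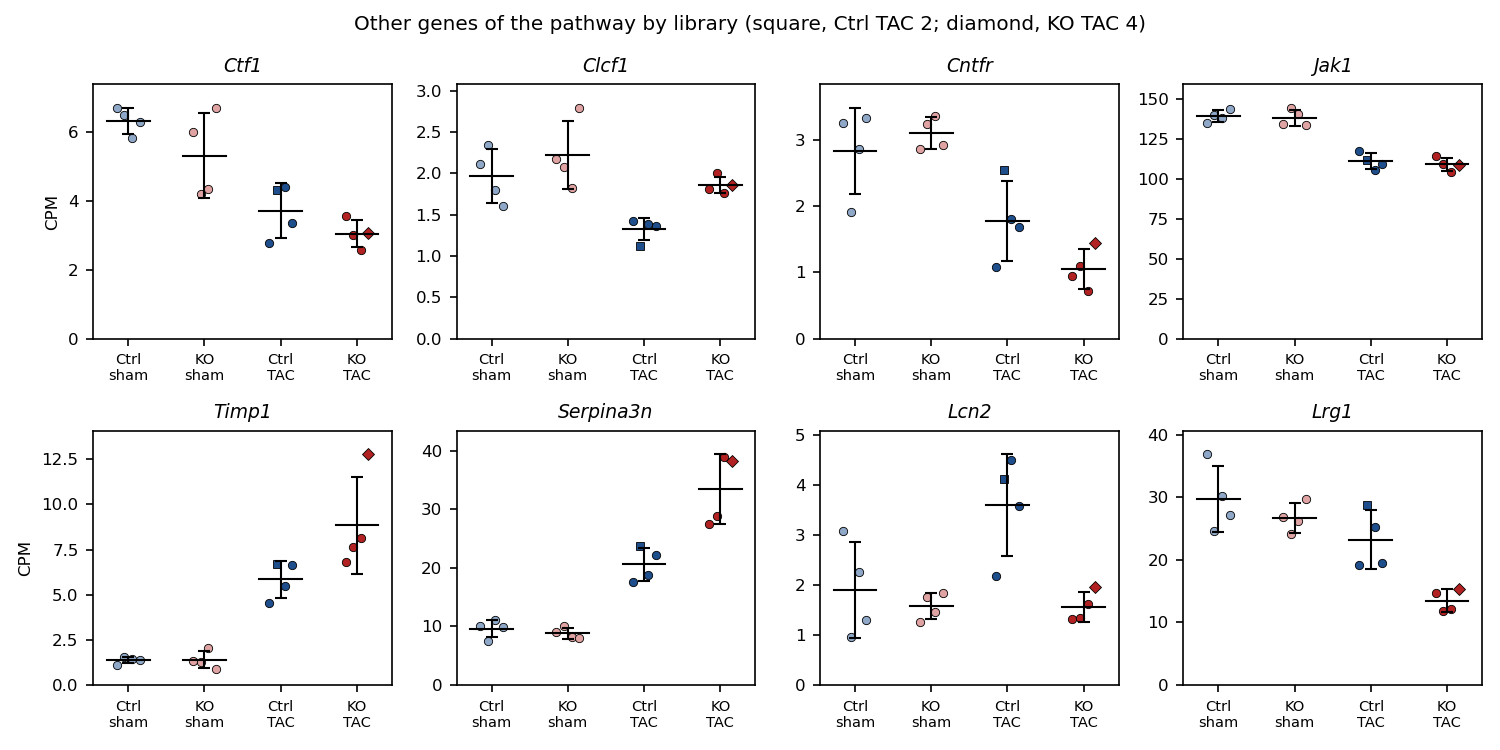
CPM (y axis, from 0) of 8 other genes of the pathway in each library by group, with the group mean and SD over 4 libraries. Timp1 and Serpina3n are higher in TAC than in sham and have their highest mean in KO TAC, while Ctf1 and Jak1 are lower in TAC in both genotypes.

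Downstream of the receptors, Jak1 was lower after TAC and the inhibitors that passed the test were higher. Jak1, the kinase most used by gp130, fell from 139 ± 3.68 to 111 ± 4.86 CPM in Ctrl (log2 -0.33, adjusted p = 5.9e-05) and from 138 ± 5.03 to 109 ± 3.98 CPM in KO (log2 -0.34, adjusted p = 1.4e-05). Neither Jak2 nor Tyk2 was called in either genotype. Of the other STAT genes, Stat5b fell in both genotypes (log2 -0.25 in Ctrl and -0.34 in KO). Stat5a fell in KO (log2 -0.31, adjusted p = 0.0417). It was not called in Ctrl, where its mean was 16.5 CPM in sham and 14.2 CPM after TAC. Of the 6 inhibitor genes other than Socs3, 2 rose in Ctrl, where 10.4% of all genes were called higher, and 4 rose in KO, where 17.8% were. None of the 6 fell. Ptpn6, a phosphatase of blood cells that acts on JAK kinases, rose by 0.60 in Ctrl and 1.01 in KO on the log2 scale. Socs2, a SOCS gene best known for limiting growth hormone signalling, rose by 0.33 and 0.53. Ptpn2, a phosphatase of STATs, rose in KO by 0.28 (adjusted p = 0.0256). It was not called in Ctrl, where its mean was 10.95 CPM in sham and 13.01 CPM after TAC. Among the 7 genes of the ERK branch, 4 were called in each genotype, against 20.0% of all genes in Ctrl and 34.3% in KO. Gab1, a docking adaptor, fell by 0.53 in Ctrl and 0.28 in KO. Shc1 rose by 0.20 and 0.30, and Ptpn11 (the phosphatase SHP2) rose by 0.36 in Ctrl. In KO, Ptpn11 was not called, with means of 224.8 CPM in sham and 255.1 CPM after TAC. Of the sheddases that release soluble receptors, Adam17 rose in Ctrl by 0.21 and Adam10 rose in KO by 0.24 on the log2 scale. Adam17 was not called in KO (mean 30.9 CPM in sham, 33.7 CPM after TAC), nor Adam10 in Ctrl (43.0 and 45.6 CPM). None of these genes was called for the interaction. A call in 1 genotype alone is therefore not shown to be a difference between genotypes. Some of the smaller changes above were lost when 1 library was left out. Stat5a in KO was lost without Ctrl sham 3, KO sham 1 or 4, Ctrl TAC 4 or KO TAC 2, 3 or 4 (adjusted p from 0.0515 to 0.126), and Ptpn2 in KO without KO sham 2 or 4 or KO TAC 3 or 4 (0.0522 to 0.0974). Ptpn11 in Ctrl was lost without Ctrl sham 2 or Ctrl TAC 1 or 2 (0.0562 to 0.0670), Adam17 in Ctrl without Ctrl sham 1 or Ctrl TAC 4 (0.0564 to 0.0679), and Gab1 in KO without KO sham 2 (0.0579).

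Of 24 tested transcripts known to rise on STAT3 signalling, 4 rose and none fell in Ctrl, and 7 rose and 2 fell in KO. Of all genes, 10.4% were called higher and 9.60% lower in Ctrl, and 17.8% higher and 16.5% lower in KO. Calls in either direction numbered 4 of 24 in Ctrl and 9 of 24 in KO, against 20.0% and 34.3% of all genes. Whether the number that rose exceeds the share of all genes called higher was not tested. Timp1, an inhibitor of matrix metalloproteinases, rose 4.25-fold in Ctrl (log2 2.09, adjusted p = 8.6e-06) and 6.32-fold in KO (log2 2.66, adjusted p = 2.1e-07). Serpina3n, a secreted protease inhibitor, rose 2.14-fold in Ctrl and 3.78-fold in KO. Junb, an AP-1 subunit, rose 2.56-fold in KO (adjusted p = 0.000796), and in Ctrl its log2 fold change was 0.38 (adjusted p = 0.335). Lcn2, a siderophore-binding protein, was higher in Ctrl TAC than in Ctrl sham (log2 0.92, adjusted p = 0.0362), and this call was lost in 5 of 16 fits that left out a library (Ctrl sham 2, Ctrl sham 4, Ctrl TAC 2, Ctrl TAC 3 or Ctrl TAC 4, adjusted p from 0.0711 to 0.0982). Lrg1, a secreted glycoprotein that acts on TGF-beta signalling in vessels, fell in KO to 0.506 of its sham level (adjusted p = 7.4e-05).

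**Figure D5:**
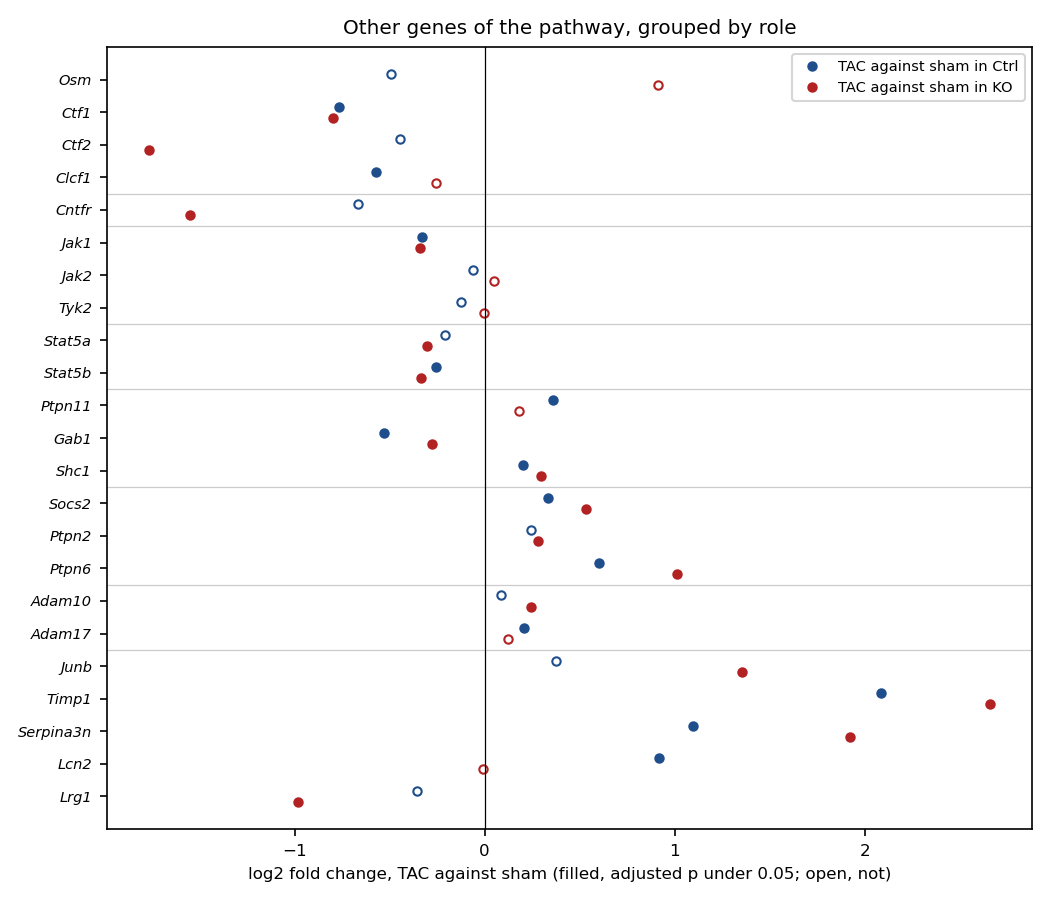
Fitted log2 fold change of TAC against sham (x axis) in Ctrl and KO for 23 other pathway genes named in the text, in blocks from top to bottom of other ligands, other receptors, kinases, other STATs, adaptors and ERK branch, inhibitors, sheddases and transcripts known to rise on STAT3 signalling. Filled points are called, and Timp1 lies farthest to the right in both genotypes.

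Between KO and Ctrl hearts after TAC, 4 of the 54 genes were called, 2 higher and 2 lower, against 2.68% of all genes (1.36% higher, 1.32% lower), and the median was 0.05. Serpina3n was 1.62-fold higher (33.4 ± 6.00 against 20.6 ± 2.85 CPM, log2 0.70, SE 0.134, adjusted p = 0.0163). Lrg1 was lower, at 13.5 ± 1.81 against 23.2 ± 4.66 CPM (log2 -0.78, SE 0.144, adjusted p = 0.0145), and Lcn2 was lower at 1.56 ± 0.304 against 3.60 ± 1.02 CPM (log2 -1.20, SE 0.296, adjusted p = 0.0414). The ranges of the groups did not overlap for any of these 3 genes, as in 5.55% of all genes higher and 4.99% lower. With 1 of the 16 libraries left out in turn, Serpina3n was called in 15 fits, Lrg1 in 14 and Lcn2 in 5. The count of 4 was 1 without Ctrl TAC 2, 2 without Ctrl TAC 3, 0 without KO TAC 3 and 5 without KO TAC 4, and 2 with Ctrl TAC 2 and KO TAC 4 both left out. Over all genes tested, 489 were called, and 63, 190, 84, 438 and 109 in these fits, in the same order. Animal numbers that begin with 25 set KO TAC 4 against Ctrl TAC 2, 3 and 4. Those that begin with 3 set KO TAC 1, 2 and 3 against Ctrl TAC 1. In that order, the log2 ratio of Serpina3n was 0.82 and 0.85, of Lrg1 -0.68 and -0.58 and of Lcn2 -1.05 and -0.61. Each ratio has a single library on 1 side, and KO TAC 4 goes against its label in its level of Gm12295. For the interaction, 0 of 54 were called by edgeR, and 8 had an unadjusted p under 0.05, against 11.1% of all genes. DESeq2 called 1 of them, Serpina3n, and 132 of the 18275 genes. The edgeR interaction of Serpina3n was 0.82 (adjusted p = 0.180). After sham surgery, 0 of 54 differed by edgeR or by DESeq2, and 2 had an unadjusted p under 0.05.

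Markers of cell types moved with the groups. Summed over 8 genes each, fibroblast markers were at 559 to 643 CPM in sham hearts, 862 to 1289 CPM in Ctrl TAC and 1476 to 1610 CPM in KO TAC, and with TAC 4 of 8 rose in Ctrl and 7 of 8 in KO, against 10.4% and 17.8% of all genes called higher. Macrophage markers were at 189 to 257 CPM in sham, 273 to 323 CPM in Ctrl TAC and 274 to 386 CPM in KO TAC, with 4 of 8 higher with TAC in Ctrl and 7 of 8 in KO. The sum of cardiomyocyte markers was 49870 to 57760 CPM in sham, 43250 to 47370 CPM in Ctrl TAC and 37610 to 39310 CPM in KO TAC. With TAC, 5 of 8 were called lower in Ctrl and 6 of 8 in KO, against 9.60% and 16.5% of all genes. Actc1 and Nkx2-5 were not called and lay above 0 (log2 0.15 and 0.12 in Ctrl, 0.06 and 0.04 in KO). Endothelial markers were at 642 to 826 CPM throughout, with 1 of 8 called (Vwf, in KO). Neutrophil markers summed to at most 3.16 CPM, and Ly6g was at 0 in every library. Schwann cell markers, summed over 4 genes, were at 4.22 to 5.78 CPM in KO TAC against 9.04 to 10.6 CPM in KO sham. In Ctrl TAC they were at 5.04 to 6.37 CPM, except for 21.4 CPM in Ctrl TAC 2, against 8.60 to 9.70 CPM in Ctrl sham. The part of these shifts in the changes of Stat3, Lifr, Il6, Il11 and the genes above was not tested.

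How the 7 more abundant members varied together was described by Pearson's r of log2 CPM over the 16 libraries. Stat3 and Lifr had an r of -0.90, and -0.11 after the group means were subtracted. Stat3 and Socs3 had an r of 0.56, and 0.52 after subtraction, and Lifr and Il6st had an r of -0.47, and -0.65 after subtraction. Among 10653 genes, the 5 whose log2 CPM was most like that of Socs3 over 16 libraries were Galnt2 (r = 0.781), Ifnar1 (0.775), Notch3 (0.763), Tnks1bp1 (0.759) and Wsb2 (0.758). Once group means were subtracted they were Mapk8ip1 (0.832), Zfp451 (0.819), Tnks1bp1 (0.806), Camta2 (0.794) and Dpp9 (0.787). For Osmr they were Ppp4r1 (0.870), Caprin1 (0.861), Micall1 (0.853), Clic4 (0.839) and Gnaq (0.827), and with group means subtracted Ppp4r1 (0.879), Micall1 (0.851), Nsd3 (0.837), Caprin1 (0.837) and Med14 (0.835). These values share libraries and their depth, and are given as a description.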

How the data were processed

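Per the labels, RNA of the heart apex was extracted with TRIzol, poly(A)-selected with a TruSeq kit and sequenced as paired 150-base reads. The submitters' processing notes name cutadapt 2.3, FastQC, HISAT2 2.1.0, edgeR 3.26.1 and build GRCm38. The authors deposited raw counts per Ensembl gene, without normalization. The counting program, its annotation and whether it used strand are not given in the sources used here. Gene names and positions came from GENCODE M21, which held 99.5% of the identifiers. Genes were filtered with filterByExpr, libraries scaled by TMM and 1 quasi-likelihood model (glmQLFit, robust) fitted to all 16 libraries in edgeR 4.0.16 (R 4.3.3), with 5 contrasts. The procedure was tested on simulated data. The SE is the log2 fold change divided by the root of F. CPM use the TMM-scaled totals.

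The members and lists were chosen with earlier results of these data known. Named genes were the 10 members, up to 3 called genes with the largest change per role and contrast, the 5 genes most like Socs3 and Osmr (average log2 CPM of at least 2) and Gm12295. The labels give each library its own animal number, so p-values measure the spread between these animals within their groups. Alternatives were RLE scaling, DESeq2 1.42.0, 2 other count filters, a threshold of 0.01, 2 series of animal numbers as terms, fits to 8 libraries and the omission of libraries. An exact permutation test of the ligands was added after seeing the data. The 95% Poisson intervals cover counting error only. Some genes of the pathway list are counted but not reported here by name.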

Additional observations from a re-analysis of the deposited data

Results flagged for a closer look

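A library was singled out where its gap to the nearest of the other 3 of its group, divided by the range of the group, exceeded Dixon's limit for 4 values. Of 128 groups examined (32 genes in 4 groups), 3 met it, and chance gives about 1 in 20. Il6st was at 149.8 CPM in KO TAC 2, below 162.5 to 164.8 CPM in the other KO TAC libraries. Adam10 was at 40.8 CPM in Ctrl sham 1, below 43.8 to 43.9 CPM in the others, and at 39.4 CPM in Ctrl TAC 2, below 47.1 to 48.2 CPM in the others.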

How the results depend on the processing

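None of the 41 called pairs of gene and comparison changed direction under any alternative. Stat3 and Lifr with TAC were called in both genotypes under all 24 alternatives. The 4 members called with TAC in KO became 2 with at least 10 counts in every library, which drops the 3 ligands, and the count was 3 to 4 with 1 library left out, Il6 being lost without KO sham 4. Il11 with TAC in Ctrl (main adjusted p = 0.0946, alternatives 0.0125 to 0.268) was also called with a term for animal numbers starting with 33 (adjusted p = 0.0125). Of other pathway genes, the 16 called with TAC in Ctrl became 10 with a term for the series starting with 25, and the 25 in KO became 16 at an adjusted p under 0.01. Over all genes tested, the same settings took 3652 called genes to 2479 in Ctrl and 6271 to 4222 in KO. Animal numbers starting with 25 belong to Ctrl TAC 2, 3 and 4 and KO TAC 4, and to no sham library. Those starting with 33 belong to Ctrl sham 4 and KO sham 1, 2 and 3, and to no TAC library. Both terms therefore overlap in part with surgery and with genotype. The 4 called between KO and Ctrl in TAC became 0 at 0.01, 9 with DESeq2, 1 with the series-25 term, 2 in a fit to 8 libraries and 2 without Ctrl TAC 2 and KO TAC 4, and ranged from 0 to 5 with 1 library left out. Over all genes tested, 489 were called, which became 19 at 0.01, 1183 with DESeq2 and 12 with the series-25 term. That number was 154 in a fit to 8 libraries, 109 without Ctrl TAC 2 and KO TAC 4, and 63 to 733 with 1 library left out. The interaction count was 1 with DESeq2, which called 132 of all genes tested, against 2 by edgeR. The cause of these moves was otherwise not tested.

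Genes that were not called and lay near 0 changed sign as follows, on the log2 scale. With the series-25 term, TAC in Ctrl gave 0.046 for Il6st and -0.092 for Socs3, and the interaction 0.066 for Osmr and 0.017 for Lifr. With the term for 33, Il6st was 0.0097 with TAC in Ctrl, Il6ra 0.15 with TAC in KO, and the interaction 0.033 for Il6ra and 0.036 for Osmr. Without Ctrl TAC 2 and KO TAC 4, Il6st was 0.028 with TAC in Ctrl, Il6ra 0.039 with TAC in KO and the interaction of Lifr 0.027. With 1 library left out, the ranges for TAC in Ctrl were -0.055 to 0.16 for Il6ra, -0.062 to 0.028 for Il6st. The range for TAC in KO was -0.11 to 0.039 for Il6ra. The range for KO against Ctrl in TAC was -0.030 to 0.034 for Il11ra1. The ranges for KO against Ctrl in sham were -0.16 to 0.048 for Il6ra, -0.049 to 0.16 for Socs3. The ranges for the interaction were -0.19 to 0.025 for Il6ra, -0.097 to 0.027 for Osmr, -0.15 to 0.053 for Lifr, -0.054 to 0.22 for Socs3.

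No paired analysis was possible because the replicate numbers follow the order of the samples and pair nothing. Low counts limit the 3 ligands, and KO TAC 4 goes against its label.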
